A study of Homo sapiens with 2 samples.

Results

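The miRNAs from miR-4251 to miR-4330 are a run of entries that follow each other in the miRNA registry, and every name with a number in this range was taken, which gave 80 of the 2549 miRNAs on the chip. This block is the one that holds miR-4270 and miR-4281, and it was chosen with earlier results of these data known. The RNA came from exosomes released by FaDu cells, a cell line of hypopharyngeal squamous cell carcinoma. There was 1 array from cells carrying the control vector (oe-NC) and 1 array from cells carrying the vector for the lncRNA HOTTIP (oe-HOTTIP), and the chip has no probe for HOTTIP that could check the overexpression. The labels name a lentivirus for both vectors and 200 ng of RNA for each array, while the methods describe plasmids brought in by lipofection. No replicate array was analysed here, so no difference below has a replicate check and no p-value was computed. The title and the treatment of each array name one group while its free-text description names the other, and here the titles were followed. Each direction below is that of the array labelled oe-HOTTIP against the array labelled oe-NC and turns round if the titles are wrong.

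A miRNA is cut from a hairpin precursor and guides the silencing complex to mRNAs that pair with its seed, the bases 2 to 8 counted from its 5′ end. Exosomes carry miRNAs between cells, so their miRNA content can be measured apart from that of the cell. In RNA pooled from many vesicles, fewer vesicles that carry a miRNA and fewer copies in each cannot be told apart. The entries of this block came from deep sequencing and most have no well-known function. None of the 80 names carries a 5p or 3p suffix, which is how the registry writes a hairpin from which a single mature strand was annotated. RefSeq (build GRCh38.p14) held a mature sequence for 73 of them, and miR-4286, miR-4287, miR-4288, miR-4294, miR-4318, miR-4325 and miR-4326 were named only. The mature sequences were short. Their median length was 18 bases against 22 bases for the 2175 other miRNAs of the chip with a sequence, and 64 of the 73 (87.7%) had at most 20 bases against 12.8% of the others. Their median content of G and C was 58.8% against 50% in those others. They lay on 19 chromosomes, and none of the 67 precursor hairpins listed for them had another hairpin starting within 10000 bases.

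The sequences of the members that the comparison turns on are shown 5′ to 3′ with the seed in capitals. The first set was detected on both arrays and lower on the array labelled oe-HOTTIP.
miR-4270: uCAGGGAGucaggggagggc
miR-4281: gGGUCCCGgggagggggg
miR-4257: cCAGAGGUggggacugag
miR-4271: gGGGGAAGaaaaggugggg
miR-4313: aGCCCCCUggccccaaaccc

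The next set shows members that were brighter after scaling on the array labelled oe-HOTTIP, and none of these has a run of 4 G.
miR-4298: cUGGGACAggaggaggaggcag
miR-4306: uGGAGAGAaaggcagua
miR-4299: gCUGGUGAcaugagaggc
miR-4284: gGGCUCACaucaccccau

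The last set is part of the 5 members detected on the array labelled oe-NC and not on the other. miR-4285, miR-4310 and miR-4323 are not shown, and none of them has a run of 4 G.
miR-4253: aGGGCAUGuccagggggu
miR-4274: cAGCAGUCccucccccug

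Detection here is the mark that the scanner software gives each miRNA on an array. Of the 80 members, 13 were detected with oe-NC and 10 with oe-HOTTIP, 8 of them on both arrays, 5 with oe-NC alone and 2 with oe-HOTTIP alone. The 15 members detected on at least 1 array (18.8%) compare with 17.9% of all 2549 miRNAs. The 65 members detected on neither array had intensities from -3.55 to 4.64 on the array labelled oe-NC, with a median of -1.31. Their intensities on the array labelled oe-HOTTIP ran from -3.31 to 5.71, with a median of -1.27. The negative control spots had 3.87 ± 2.37 (SD over 976 spots) against 3.45 ± 2.21 (SD over 975 spots). On each array 2 of the 65 were above the mean of those control spots, so most of the block was at the background of the chip.

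The intensities were scaled by the 90th percentile of the 261 miRNAs detected on both arrays, which was 279.9 for oe-NC and 439 for oe-HOTTIP. On this scale 9 of the 15 detected members were at least 2-fold lower on the array labelled oe-HOTTIP and 3 were at least 2-fold higher. Over all 457 miRNAs detected on at least 1 array, 25.2% were lower and 33.9% higher by the same threshold, so lower calls outnumbered higher ones in the block and not on the chip. This contrast was lost when detection asked for over 50% of the spots well above background, where 3 members were lower (miR-4270, miR-4281 and miR-4274) and 4 higher (miR-4284, miR-4298, miR-4299 and miR-4306), beside 39 lower and 106 higher on the chip. With that rule the scale between the arrays moved as well, since the log2 differences of members still detected on both arrays all rose by the same amount. The chip's split depended on the processing, with 63 lower and 223 higher without scaling, 88 and 86 with a higher floor for the bounds, and 84 and 53 with normexp background correction and no offset. Among the 8 members detected on both arrays, 5 were lower and 1 higher, beside 21.1% lower and 18.0% higher for all 261. Their median log2 difference was -1.29, and that of all 261 was 0.02. Without scaling, the median of all 261 was 0.67, the array labelled oe-HOTTIP being brighter, and the members were still on the other side at -0.64. Before scaling, the spike-in dmr_285 was brighter on that array by 0.80 on the log2 scale, and dmr_31a by 0.47. Scaling by them left the members' median at -1.27.

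**Figure D1:**
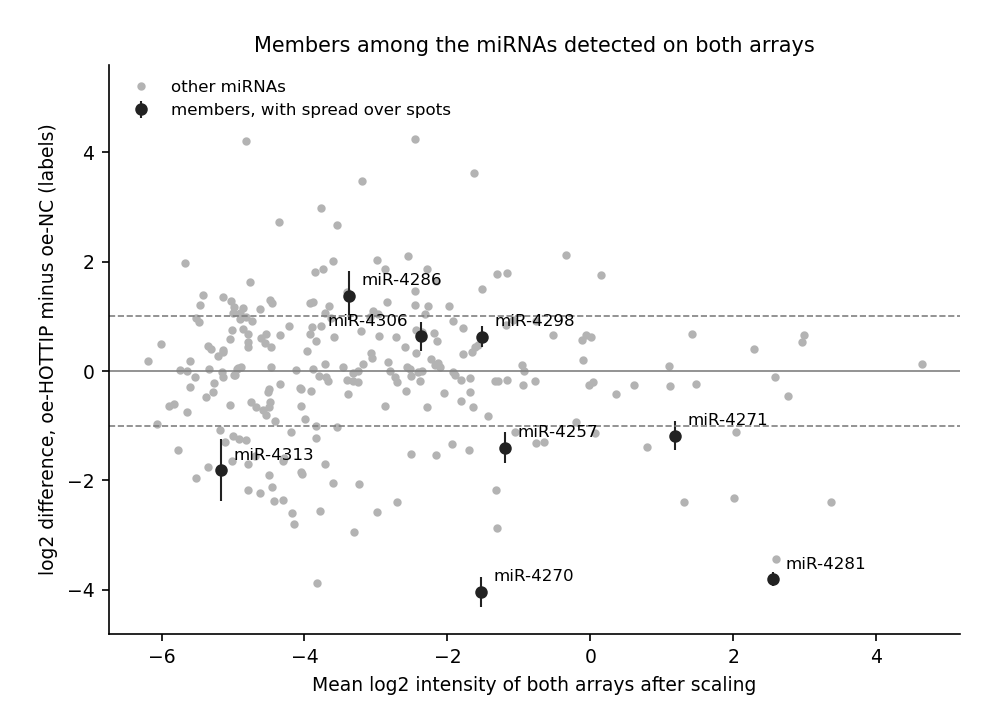
Log2 difference between the arrays (oe-HOTTIP minus oe-NC by their titles, vertical axis) against the mean log2 intensity after scaling (horizontal axis) for the 261 miRNAs detected on both arrays, with the 8 members in black, vertical bars for their spread over spots, and dashed lines at 2-fold. miR-4270 at -4.04 lies below every other point, and miR-4281 at -3.80 is near it. Outside the block, miR-4700-5p at -3.88 lies between these members, and miR-6829-5p is at -3.43.

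For miR-4270 the mean intensity before scaling was 394 ± 55.2 (SD over 19 spots) with oe-NC and 37.7 ± 4.56 (SD over 19 spots) with oe-HOTTIP, the array titles standing for the arrays here and in what follows. After scaling it was 16.4-fold lower with oe-HOTTIP, or -4.04 ± 0.27 (spread over spots) as a log2 difference. For the SD over spots of a miRNA, spots were taken around the mean of their own probe and pooled over its probes. That SD and the spread over spots therefore leave out any difference between the probes of a miRNA. Both probes of miR-4270 were lower, with log2 differences of -4.12 and -3.95. On the probe with the wider scatter, the spots ran from 235 to 468 on the array labelled oe-NC and from 28.2 to 42.1 on the other, so no spot of the first array came near the second. The mature strand lies at chr3:15496279-15496298 on the minus strand, within the span and on the strand of COLQ, which encodes the collagen tail of acetylcholinesterase. Under the alternatives other than the authors' table as its columns are named, the log2 difference lay between -4.21 and -2.81.

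miR-4281 had 6127 ± 474 (SD over 19 spots) with oe-NC against 690.4 ± 33.8 (SD over 17 spots) with oe-HOTTIP, 13.9-fold lower after scaling, or -3.80 ± 0.13 (spread over spots) as a log2 difference. Its probes differed in size but not in direction. One probe went from 7225 to 593, a log2 difference of -4.26, and the other from 5029 to 787, a log2 difference of -3.33. This gap between the probes is wider than the spread over spots, so the size of the difference depends on the probe read. The mature strand lies at chr5:176629449-176629466 on the minus strand, within and on the strand of SNCB, the gene of beta-synuclein. It ends in 6 G, the longest G run of any detected member with a sequence, and 72.2% of its bases are G. The log2 difference stayed between -4.15 and -2.99 under the alternatives. miR-4270 and miR-4281 were the members called lower under each of the 15 other settings that follow the scanner's direction.

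miR-4271 had 962 ± 148 (SD over 17 spots) against 665 ± 65.2 (SD over 20 spots), which differ by -1.18 ± 0.26 (spread over spots) as scaled log2 values. Its probes gave -1.19 and -1.16. The mature strand lies at chr3:49274158-49274176 on the plus strand, within C3orf62 and opposite to it. The call was lost without scaling, where the difference was -0.53, with quantile normalization, with the stricter detection rule and in the authors' normalized table with its columns exchanged.

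miR-4257 had 198 ± 28.4 (SD over 19 spots) against 118 ± 15.0 (SD over 20 spots), which differ by -1.40 ± 0.28 (spread over spots) as scaled log2 values. Nearly all of this signal came from one probe, which went from 382 to 226. The other probe read 14.3 and 10.11, and its spots overlapped between the arrays after scaling. The mature strand lies at chr1:150551987-150552004 on the plus strand, within ADAMTSL4, a gene of the extracellular matrix, and on its strand. Its difference of -0.75 without scaling was under 2-fold, as it was with the stricter detection rule.

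miR-4313 had 14.5 ± 1.78 (SD over 18 spots) with oe-NC against 6.49 ± 2.41 (SD over 20 spots) with oe-HOTTIP, which differ by -1.81 ± 0.56 (spread over spots) as scaled log2 values. It was dim. Of its spots, 17 of 18 were well above background with oe-NC and none with oe-HOTTIP, and the call was lost with normexp and an offset of 50 and with the stricter detection rule. The mature strand, at chr15:75762286-75762305 on the minus strand, holds runs of C rather than G.

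Of the 8 members detected on both arrays, miR-4286 was the single one at least 2-fold higher. It had 16.7 ± 4.47 (SD over 20 spots) with oe-NC against 68.1 ± 9.94 (SD over 20 spots) with oe-HOTTIP, which differ by 1.38 ± 0.44 (spread over spots) as scaled log2 values. One probe carried the difference, from 33.7 to 129. The other probe read -0.40 and 7.15, so on the first array it gave no signal above the control spots. With normexp and with the stricter detection rule the call was lost, and the lowest log2 difference among the alternatives was 0.17.

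miR-4298 and miR-4306 were brighter on the array labelled oe-HOTTIP but stayed under 2-fold. miR-4298 had 78.7 ± 8.56 (SD over 18 spots) against 191 ± 15.4 (SD over 18 spots), which differ by 0.63 ± 0.19 (spread over spots) as scaled log2 values. miR-4306 had 43.4 ± 6.85 (SD over 20 spots) against 106 ± 8.99 (SD over 20 spots), which also differ by 0.63 ± 0.26 (spread over spots) as scaled log2 values. Both exceeded 2-fold without scaling, at 1.28 each, and with the stricter detection rule. The log2 differences of both members were above 0 under all alternatives of the scanner output. miR-4298 lies at chr11:1859505-1859526 on the minus strand within LSP1, a gene of an actin-binding protein of leukocytes, and miR-4306 at chr13:99643123-99643139 on the plus strand within CLYBL, a gene of a mitochondrial enzyme.

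**Figure D2:**
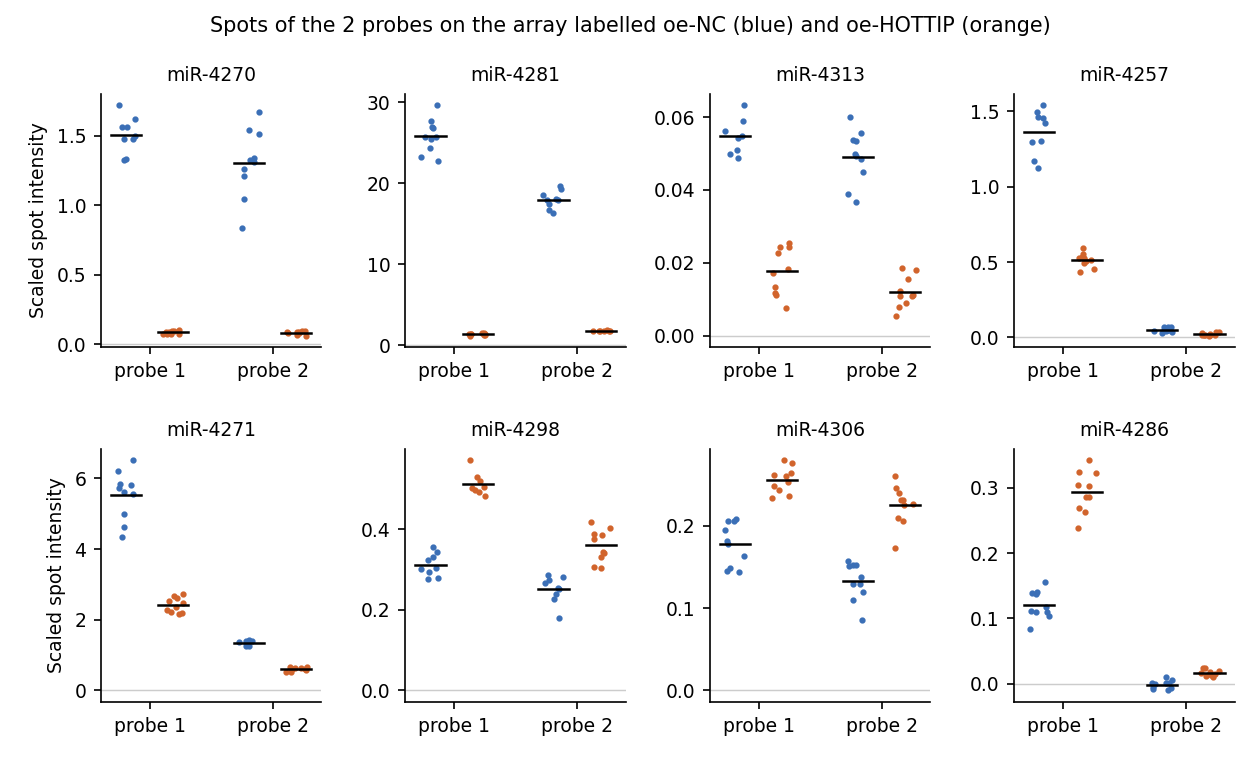
Scaled intensity of each spot (vertical axis, 1 being the 90th percentile of the array) for both probes of the 8 members detected on both arrays, in blue for the array labelled oe-NC and in orange for the array labelled oe-HOTTIP, with a black line at the mean of each set of spots. In 14 of the 16 probes the spots of the arrays do not overlap, and the exceptions are the dimmer probes of miR-4257 and miR-4286.

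The spots of 14 of these 16 probes did not overlap between the arrays after scaling, beside 48.1% of the 543 probes of all miRNAs detected on both arrays. Spots of a probe share one hybridization, so this is the spread within an array and leaves out the variation between cultures, extractions and labelling reactions.

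Members detected on 1 array alone have a lower bound in place of a fold, for which the dim side is set to the member's own signal or to the lowest signal of any detected miRNA of that array, whichever is more. For miR-4253, miR-4274, miR-4284, miR-4299 and miR-4310 it was the member's own signal. Their value is thus the ratio of both scaled signals and not a strict minimum. Before scaling that lowest signal was 0.976 with oe-NC and 2.43 with oe-HOTTIP. Both of these lowest signals are below what negative control spots gave on average, so a value set against them, or against a member's own signal at that level, can overstate the fold. A higher floor of 5.32 and 6.44 was therefore read beside it. That floor is the lowest signal at which 50% of the 51 miRNAs around it in rank were detected.

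miR-4299 had 2.64 ± 3.06 (SD over 19 spots) with oe-NC against 25.2 ± 3.85 (SD over 19 spots) with oe-HOTTIP, 6.10-fold higher there by the scaled signals, and 3.02-fold with the higher floor. Its probes agreed, with 24.3 and 26.2 on the array labelled oe-HOTTIP. It lies outside every other gene span of the RefSeq table, at chr11:11656661-11656678 on the minus strand. miR-4284 had 4.36 ± 2.42 (SD over 20 spots) against 27.4 ± 5.62 (SD over 19 spots), 4.001-fold higher by the scaled signals, and 3.28-fold with the higher floor. One of its probes read 54.8 on the array labelled oe-HOTTIP while the other read -0.03, so the value rests on 1 probe. It lies at chr7:73711327-73711344 on the plus strand, opposite to STX1A, a gene of synaptic vesicle fusion.

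In the other direction, miR-4274 had 17.6 ± 2.66 (SD over 20 spots) with oe-NC against 6.44 ± 2.03 (SD over 20 spots) with oe-HOTTIP, 4.29-fold lower there by the scaled signals. miR-4253 had 13.7 ± 3.54 (SD over 20 spots) against 6.62 ± 2.29 (SD over 20 spots), 3.25-fold lower by the scaled signals. Their positions are chr4:7460091-7460108 on the plus strand within SORCS2, a gene of a sorting receptor of neurons, and chr1:22863169-22863186 on the minus strand, opposite to EPHB2, a gene of an ephrin receptor. For both, the spots of the arrays were apart on each probe after scaling. Their own signals with oe-HOTTIP were already at or above the higher floor, so that floor could not change these values. The calls of miR-4285 and miR-4310 were weaker. miR-4285 had 5.68 ± 4.17 (SD over 20 spots) against -2.35 ± 0.989 (SD over 18 spots), and the signal came from 1 probe. It was 3.67-fold lower when set against the lowest signal of any detected miRNA, or 1.38-fold with the higher floor. miR-4310 had 7.58 ± 1.71 (SD over 19 spots) against 3.76 ± 1.67 (SD over 20 spots), 3.17-fold lower by the scaled signals, or 1.85-fold with the higher floor, and none of its spots was well above background on either array. miR-4323 had 2.69 ± 1.26 (SD over 20 spots) against 0.464 ± 1.64 (SD over 20 spots), a bound of 1.74-fold that did not reach the threshold. Its signal also came from 1 probe, which read 9.10 and 3.54 with spots that did not overlap after scaling. The other probe read -3.72 and -2.61, and the mean with oe-NC was below that of the negative control spots. Of the 5 members whose value the higher floor could change, miR-4299 and miR-4284 stayed at 2-fold or more. The calls of miR-4299, miR-4284, miR-4274 and miR-4253 were lost with normexp and an offset of 50, that of miR-4284 also with no offset and that of miR-4253 with the stricter detection rule.

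**Figure D3:**
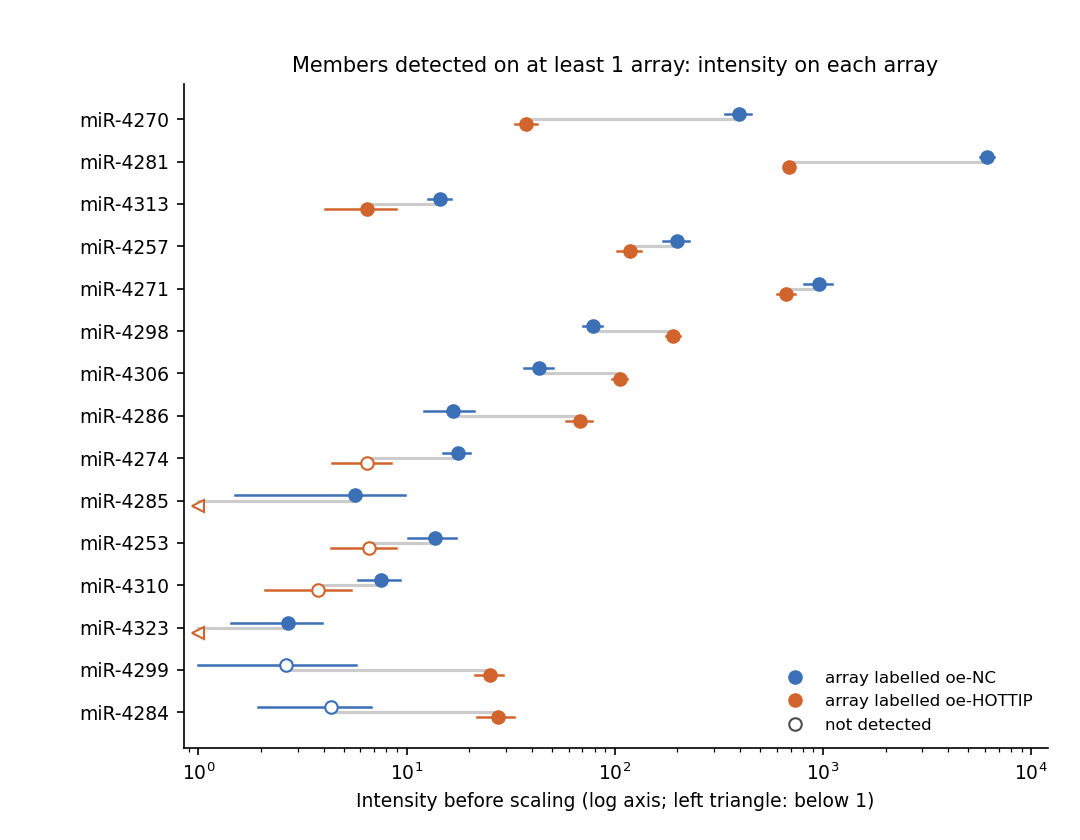
Intensity before scaling (horizontal log axis) of the 15 members detected on at least 1 array, in blue for the array labelled oe-NC and in orange for the array labelled oe-HOTTIP, with the SD over spots within probes as bars, open symbols where the miRNA was not detected and a triangle for a value below 1. The array labelled oe-HOTTIP is brighter before scaling, and miR-4270, miR-4281, miR-4271, miR-4257 and miR-4313 are dimmer on it all the same.

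A run of 4 G (GGGG, searched in the mature strand alone) was looked for after the values had been seen, since 5 of the 9 lower members share it. It is held by 269 of the 2248 miRNAs with a sequence and by 11 of the 73 members (15.1%). Of these 11 members, 5 were detected, and those 5 (miR-4253, miR-4257, miR-4270, miR-4271 and miR-4281) were at least 2-fold lower on the array labelled oe-HOTTIP. The 6 others, miR-4259, miR-4260, miR-4278, miR-4283, miR-4322 and miR-4327, were not detected. Among the 258 miRNAs outside the block that hold GGGG, 97 were detected, 17 of them lower and 46 higher, and their median log2 difference over the 55 detected on both arrays was 0.28 against -2.60 for the 4 members. Higher calls thus outnumbered lower ones among the other miRNAs with GGGG, and no test was made of this difference. Outside the block the order of these counts was kept under every other scaling (from 12 lower and 59 higher without scaling to 21 lower and 37 higher with the 90th percentile over all miRNAs) and turned with normexp (16 lower and 12 higher with no offset, 7 and 4 with an offset of 50). No member with GGGG was called higher under any alternative of the scanner output. Of the 62 members without GGGG, 9 were detected, 4 of them lower and 2 higher, and outside the block 276 miRNAs without GGGG were detected, 72 of them lower and 82 higher.

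Across the 7 members detected on both arrays with a sequence, Spearman's rho with the log2 difference was -0.79 for the content of G and C, -0.45 for the longest run of G, -0.36 for the content of G and -0.22 for the length. Across 211 other miRNAs it was 0.05, 0.11, 0.19 and -0.0034 in the same order. These are correlations over miRNAs that share the same pair of arrays, and they are given as a description.

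**Figure D4:**
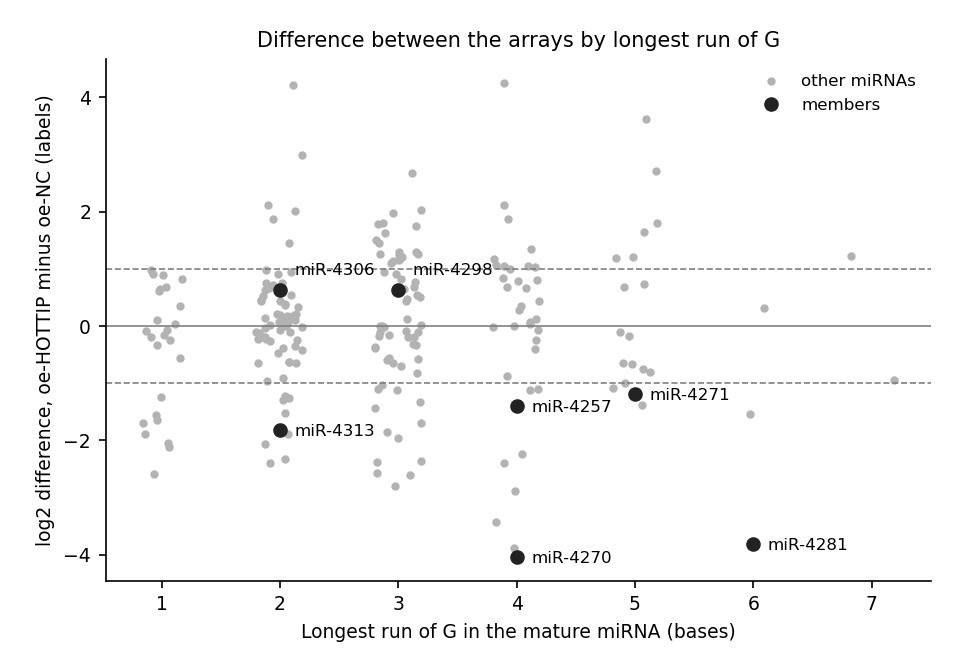
Log2 difference between the arrays (oe-HOTTIP minus oe-NC by their titles, vertical axis) against the longest run of G in the mature miRNA (horizontal axis, in bases), for miRNAs detected on both arrays with a RefSeq sequence, with members in black, other miRNAs in grey with sideways scatter, and dashed lines at 2-fold. The 4 members with a run of at least 4 G lie between -4.04 and -1.18, while the other miRNAs with such runs spread over both directions.

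miRNAs that share a seed with a detected member, and so would be predicted to pair with the same sites, were compared next. Only the 2248 miRNAs with a RefSeq sequence could be searched, which leaves out miR-4286 among others. Within these there were 7 such miRNAs, of which 3 were detected on at least 1 array.
miR-6754-5p: cCAGGGAGgcugguuuggagga
miR-185-5p: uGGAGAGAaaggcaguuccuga
miR-6780b-5p: uGGGGAAGgcuuggcagggaaga

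miR-6754-5p (chr11:71473508-71473529, plus strand) has the seed of miR-4270 and was also lower, with 41.4 ± 13.5 (SD over 19 spots) with oe-NC against 9.40 ± 1.72 (SD over 20 spots) with oe-HOTTIP, which differ by -2.79 ± 0.54 (spread over spots) as scaled log2 values. The shared stretch is that seed of 7 bases and no more. miR-4441, which has the same seed, was not detected. miR-185-5p (chr22:20033153-20033174, plus strand) shares 16 bases with miR-4306, which are the whole of miR-4306 but its last base, so the probes of these miRNAs may not tell them apart. It had 6.97 ± 4.44 (SD over 20 spots) against 14.3 ± 3.91 (SD over 20 spots), which differ by 0.38 ± 1.00 (spread over spots) as scaled log2 values, in the direction of miR-4306 and within its error over spots. miR-6780b-5p (chr6:43434547-43434569, plus strand) has the seed of miR-4271 and went the other way, detected on the array labelled oe-HOTTIP alone with a bound of 2.28-fold higher. By the scaled signals, sharing a seed did not go with sharing a direction in all 3 pairs, but the exception rests on this dim miRNA. miR-4298 had no seed partner among the miRNAs with a sequence, but it shares runs of at least 10 bases with 7 others of them, of which 5 were detected. miR-6831-5p and miR-7847-3p had log2 differences of 2.01 and 1.87, miR-3911 a bound of 5.08-fold higher, miR-4739 a log2 difference of 0.28 and miR-6778-5p one of -1.03.

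Among the members with a sequence, one seed occurs more than once. miR-4265, miR-4296 and miR-4322 share it (UGUGGGC), and none of them was detected. As to their place in the genome, 7 of the 14 detected members with a sequence lay within a protein-coding gene on its strand, against 17 of the 59 undetected ones. The table of gene strands did not cover the host gene of 2 and 5 further members, and 2 of the detected members against 25 of the undetected lay in no protein-coding gene.

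Other stretches of the registry show how the block stands among late-numbered miRNAs. From miR-4417 to miR-4540, 34 of 142 were detected on at least 1 array, 7 of them lower and 18 higher, with a median log2 difference of 0.53 over 21 miRNAs. From miR-4632 to miR-4804, 37 of 280 were detected, 13 lower and 15 higher, with a median of -0.32 over 20 miRNAs. Of those numbered below 1000, 164 of 910 were detected, 30 lower and 33 higher, with a median of 0.01 over 106 miRNAs. The share of detected miRNAs called lower was thus 60.0% in the block and between 18.3% and 35.1% in these stretches. The block was chosen with earlier results of these data known and holds miR-4270 and miR-4281, so this comparison is not independent of the choice. Among the miRNAs detected on both arrays, 62.5% were lower and 12.5% higher in the block. From miR-4632 to miR-4804 these shares were 40.0% and 15.0%, so lower calls were the more frequent there too. They were 28.6% and 38.1% from miR-4417 to miR-4540, and 10.4% and 9.4% below 1000. With 15 detected members and 1 array per group, none of these differences was tested.

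As a check of the cell type, 5 of 7 miRNAs of squamous epithelium were detected with oe-NC and 6 with oe-HOTTIP, with miR-205-5p at 415 and 490 and miR-203a-3p on neither. The red blood cell miRNAs miR-451a, miR-144-3p and miR-486-5p were all detected, miR-451a at 2233 and 2552, and their log2 differences ran from -1.75 to -0.33. Of 4 white blood cell miRNAs, miR-223-3p and miR-150-5p were detected on both arrays and the other two on neither. The liver miRNA miR-122-5p was detected on both arrays, at 8.99 and 14.8. Of 3 muscle miRNAs, miR-133a-3p was detected with oe-NC alone (8.94 against 0.171), miR-206 with oe-HOTTIP alone (-1.11 against 14.4) and miR-1-3p on neither. The summed level of the red blood cell miRNAs was 2265 with oe-NC and 2581 with oe-HOTTIP before scaling, and that of the white blood cell miRNAs 17.4 and 46.3. Their part in the values of the block was not tested.

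In the authors' normalized table, each group's column tracked the scanner output of the opposite array, with a Spearman's rho across miRNAs of 1.00 against the other array and of 0.77 and 0.76 against its own. There the oe-NC column listed miR-4270 at 3.01 and miR-4281 at 7.32 on the log2 scale, and the oe-HOTTIP column at 7.01 and 10.7. Read as named, the table put 8 members at least 2-fold higher and 3 lower, and with its columns exchanged 8 lower and 3 higher. The files do not settle which direction holds.

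**Figure D5:**
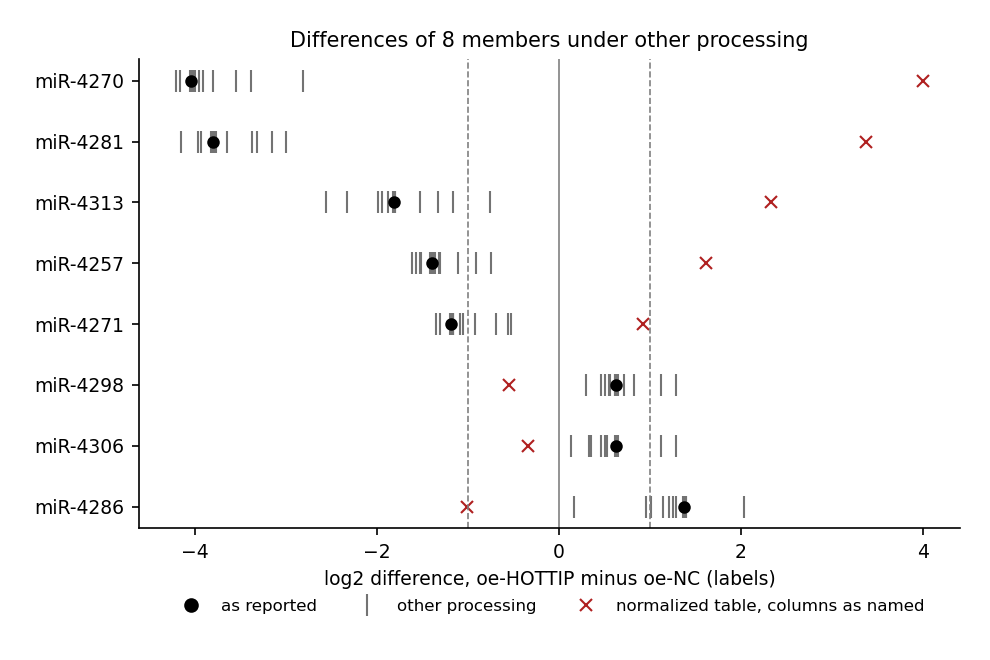
Log2 differences (horizontal axis, oe-HOTTIP minus oe-NC) of the 8 members detected on both arrays, with a dot for the value as reported, a bar for each other processing of the same direction, a red cross for the authors' normalized table with its columns as named, and dashed lines at 2-fold. miR-4270 and miR-4281 stay beyond 2-fold throughout, at -2.81 or lower except for the crosses at 4.001 and 3.37.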

How the data were processed

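The authors deposited the Agilent Feature Extraction output of each array, with a background-subtracted intensity per spot, and a table of normalized log2 values, which their methods place in GeneSpring after a 90th percentile normalization. The file header gives software version 11.5.1.1, while the submitters' processing notes give 10.10. The 80 members had 1600 spots on each array, on 2 to 4 probes each.

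From the scanner intensities, control spots and outlier spots (4.19% and 2.81% of the members' spots) were left out, spots were averaged per probe and probes per miRNA, and intensities were scaled by the 90th percentile of the miRNAs detected on both arrays. The 2-fold threshold is that of the methods. The SD over spots of a miRNA was pooled from the SDs within its probes, so it leaves out the difference between probes. The spread of a log2 difference is the square root of the summed squares of both relative SDs over spots, divided by the natural log of 2. Every member detected on at least 1 array was named, as were detected miRNAs with a sequence that share a seed or at least 10 bases with one. The members and lists were chosen with earlier results of these data known. The functions were tested on simulated data. The GGGG and CCCC searches were added after the values were seen. Sequences and positions come from RefSeq (GRCh38.p14), whose names matched 2248 of 2549 miRNAs. In all 16 alternatives were run, with Python 3.11.15, pandas 2.3.3, scipy 1.17.1, R 4.3.3 and limma 3.58.1. The number of arrays limits the precision, and errors over spots are technical.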

Additional observations from a re-analysis of the deposited data

How the results depend on the processing

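No paired analysis was possible because there is a single array for each condition, and for the same reason no replicate could be left out. The reported counts were 9 members lower and 3 higher, with a median log2 difference of -1.29. Without scaling, 5 were higher and the median was -0.64, as follows from the brighter array labelled oe-HOTTIP. With normexp and an offset of 50, 4 were lower, 0 higher and the median was -0.91, and with no offset 1 was higher. With detection by over 50% of the spots, 3 were lower, 4 higher and the median over 6 members was -0.80. Counting members detected on both arrays alone left 5 lower and 1 higher. With the detection rule the log2 differences of these 6 members all moved up by the same amount, which is a shift of the scale between the arrays. That of miR-4257 went from -1.40 to -0.91 and that of miR-4298 from 0.63 to 1.12. For normexp and the rest of the change with the detection rule the cause was not tested. With the column names of the normalized table taken at face value, 3 were lower, 8 higher, the median was 1.27, and each log2 difference turned, to 4.001 (miR-4270), 3.37 (miR-4281), 2.33 (miR-4313), 1.62 (miR-4257), 0.92 (miR-4271), -0.33 (miR-4306), -0.55 (miR-4298) and -1.01 (miR-4286), because its columns follow the opposite arrays. Under the remaining scalings and summaries, 7 to 10 members were lower and 3 higher. Bounds of dim members are limited by the signal of the negative control spots.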

Other observations

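A run of 4 C (CCCC) was also searched in the mature strand after the values had been seen. It is held by 6.81% of the miRNAs with a sequence. Of the 146 outside the block that hold it, 48 were detected, 37 of them at least 2-fold lower on the array labelled oe-HOTTIP and 5 higher. In the block 7 members hold it, of which miR-4274 and miR-4313 were lower, miR-4284 was higher, miR-4323 had a bound of 1.74-fold lower, and miR-4258, miR-4292 and miR-4312 were not detected. Under the other scalings, from 22 to 37 of those outside the block were lower and from 4 to 6 higher, and with normexp 29 and 0 with no offset and 3 and 0 with an offset of 50. No member with a sequence holds both runs.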
